A study of Mus musculus with 4 samples.

Results

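The genes described here are semaphorins, plexins and neuropilins together with the netrin gene Ntn4, in mouse T cells that had been induced towards the regulatory T cell (Treg) fate. There are 10 of them among the 18193 genes that a probe set of the array names alone. They are the ligand genes Ntn4, Sema4a, Sema4b, Sema4d and Sema7a, the co-receptor genes Nrp1 and Nrp2, and the receptor genes Plxnb2, Plxnc1 and Plxnd1. Members were all probe sets whose platform annotation names exactly 1 gene, that gene being on the list, which gave 27 probe sets. The list had been drawn up with the KO and WT signals of these arrays known. Differences between genotypes in these 10 genes, and their calls in the fit over all probe sets, are therefore a description and no independent evidence.

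Naive T cells from the spleen of wild-type (WT) or KO mice were cultured for 3 days under conditions that induce Treg cells, and their total RNA was hybridised to 4 Affymetrix arrays in 1 colour, with 2 arrays per genotype. Which gene the KO mice lack, their strain and age, and the agents of the culture are not stated in the labels, so the targeted gene was not checked. Each array has its own numbered source of mice (WT1, WT2, KO1 and KO2). The labels do not say how the cultures were kept apart, so the spread between arrays may be partly technical. A value is a MAS5 signal, the linear brightness of a set of short probes for 1 transcript, and the number of arrays limits its precision.

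Semaphorins are secreted or membrane-bound guidance proteins, and plexins are their main receptors, which act on small GTPases of the Ras and Rap families inside the cell. Neuropilins are co-receptors that pair with plexins and also bind vascular endothelial growth factors. In mouse T cells Nrp1 is a surface marker of Treg cells from the thymus, Sema4a is a ligand of Nrp1, Sema4d is found on resting T cells, and Sema7a appears on activated T cells and binds Plxnc1 and an integrin. Netrins are laminin-like secreted guidance proteins with their own receptors.

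Once the dimmest 40% of probe sets had been dropped, 20 of the 27 member probe sets and 9 of the 10 genes remained for comparison. A probe set is called where limma gives an adjusted p under 0.05 over all 27022 tested probe sets. Of the 20 member probe sets, 3 were called higher and 8 lower in KO cells. Over all tested probe sets 17.1% were called, 7.89% higher and 9.17% lower. The groups did not overlap in 17 of the 20, against 60.2% of all tested probe sets. The members were picked on this contrast, so nothing is read from these counts. Called lower were Ntn4, Nrp1, Sema4b and 1 probe set of Plxnc1, and called higher were Sema4a and 1 probe set of Sema7a. Sema4d, Nrp2 and Plxnd1 had no called probe set, and Plxnb2 was too dim to be tested. Log2 differences of the 20 ran from -4.47 to 1.13 with a median of -0.42, and the median over all tested probe sets was -0.08. Differences are given throughout as KO minus WT on the log2(signal + 16) scale, ± SE from limma.

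**Figure D1:**
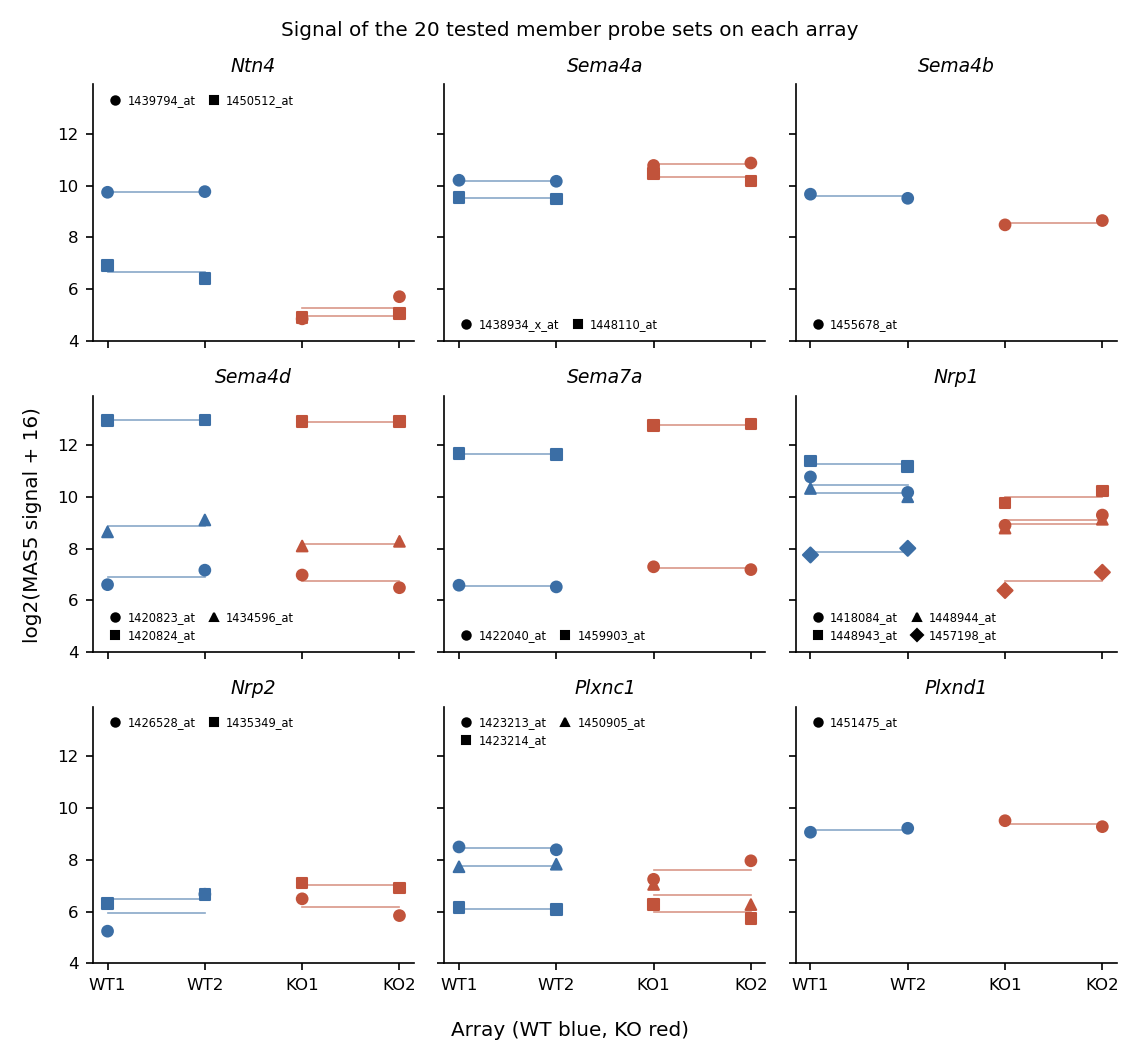
Log2(MAS5 signal + 16) of each tested member probe set on each array, WT in blue and KO in red. A marker shape is 1 probe set and a line is the mean of 2 arrays. Both Ntn4 probe sets drop on the KO arrays, all 4 of Nrp1 lie lower there, and the WT and KO arrays of Sema4d 1420824_at lie close together.

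The arrays carried T cell transcripts, and other transcripts that differed between the genotypes. Of the 3 T cell markers with a tested probe set, 2 were called higher in KO cells and 0 lower. Cd3d was at 17974 to 18632 on WT and 21778.5 to 25008 on KO arrays, and was called higher. Cd3e, also called higher, was at 1722 to 1819 on WT and 3062 to 3573 on KO arrays. Cd4 was at 662 to 786 on WT and 517 to 631 on KO arrays and was not called. Of the 4 Treg markers 2 were called lower and 2 higher in KO cells. Foxp3, the defining Treg factor, was at 2033 to 2177 on WT and 947 to 1101 on KO arrays, and Ikzf2 was lower too (-0.73 ± 0.15), while Il2ra (0.99 ± 0.12) and Ctla4 (0.97 ± 0.10) were higher. Of 5 monocyte and macrophage markers 4 were called higher in KO cells, with a summed signal of 378 to 529.7 on WT and 1382 to 1617 on KO arrays. Of 5 mast cell and basophil markers 4 were called higher, with a summed signal of 695 to 888 on WT and 7761 to 11610.0 on KO arrays. Both tested CD8 markers and the tested NK marker were called higher too, as was Pecam1 (0.79 ± 0.20), the only tested endothelial and stromal marker. Of 3 tested B cell markers and 3 tested dendritic cell markers 0 were called by limma, and 0 had an unadjusted p under 0.05. No probe set was at a signal of 0 on any array, so a marker above 0 is not thereby shown to be present. The part of these other transcripts in the differences below was not tested. In bulk RNA, fewer cells with a transcript and less of it per cell cannot be told apart.

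Ntn4, a secreted netrin of basement membranes, had the largest difference of the 9 tested genes. Probe set 1439794_at of Ntn4 read 841 and 856 on the WT arrays and 13.04 and 36.5 on the KO arrays. The WT arrays were close to each other, and both KO arrays lay far below them, under the median signal of their array (56.5 and 60.5). The log2 difference was -4.47 ± 0.31, larger in size than those of 99.8% of tested probe sets, which corresponds to a 22.1-fold higher level in WT cells. The gap between the lower WT and the higher KO array was 4.03, while the KO arrays differed from each other by 0.85. The other probe set of Ntn4, 1450512_at, read 105 and 68.9 on WT and 14.0 and 17.3 on KO arrays, with a log2 difference of -1.68 ± 0.42. It pointed the same way without overlap. Because the KO signals are close to the added 16, the sizes depend on it: with 1 added in its place the differences were -5.21 and -2.38, and with 64 they were -3.37 and -0.91. The call of 1450512_at, but not that of 1439794_at, was lost when WT array 1, WT array 2 or KO array 1 was left out, or when no filter on dim probe sets was set. Under the stricter filter of 60% the probe set 1450512_at was too dim to be tested.

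Of the 4 semaphorin genes among the members, 2 were called higher, 1 lower and 1 not at all. Sema7a encodes a semaphorin anchored in the membrane by a lipid tail. Its probe set 1459903_at read 3213 and 3143 on WT and 6847 and 7141 on KO arrays. Arrays of a genotype were within 0.06 of each other on the log2 scale, and every KO array was above every WT array, by a difference of 1.13 ± 0.10 or 2.19-fold. The dimmer probe set of Sema7a, 1422040_at, read 80.1 and 75.9 on WT and 141 and 129.9 on KO arrays (0.69 ± 0.28) and was not called, though its groups did not overlap either.

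Sema4a encodes a membrane semaphorin that binds Nrp1 and, as a further receptor, Timd2. Its probe set 1448110_at read 726 and 699.6 on WT and 1389 and 1139 on KO arrays, a difference of 0.81 ± 0.15 or 1.75-fold. The probe set 1438934_x_at of Sema4a read 1166 and 1134 on WT and 1739 and 1858 on KO arrays, a difference of 0.64 ± 0.12. The suffix of its name marks probes that can bind related transcripts. Both probe sets of Sema4a thus put the KO arrays above the WT arrays. Both calls of Sema4a were lost in a fit that took the variance as independent of signal.

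Sema4b, a membrane semaphorin of the same class, moved the opposite way. Its probe set 1455678_at read 798 and 713 on WT and 342 and 386 on KO arrays, a difference of -1.02 ± 0.16, with every KO array under every WT array. The WT pair differed by 0.16 and the KO pair by 0.17. The other probe set of Sema4b was too dim to be tested. The call of Sema4b, too, was lost without the signal dependence of the variance.

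Sema4d encodes CD100, a semaphorin that is abundant on T cells and binds Plxnb1 and Cd72. Its brightest probe set, 1420824_at, read 7816 and 7974 on WT and 7597 and 7584 on KO arrays. The difference was -0.06 ± 0.09, with a 95% interval from -0.26 to 0.14. The probe set 1434596_at of Sema4d read 384 and 534 on WT and 258 and 294 on KO arrays, a difference of -0.68 ± 0.21 that was not called. The probe set 1420823_at of Sema4d overlapped between the groups (-0.15 ± 0.34). All 3 differences of Sema4d were below 0 with overlapping 95% intervals, and whether the probe sets differ from each other was not tested. The 1434596_at probe set of Sema4d was called when WT array 1 was left out, at -0.92.

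**Figure D2:**
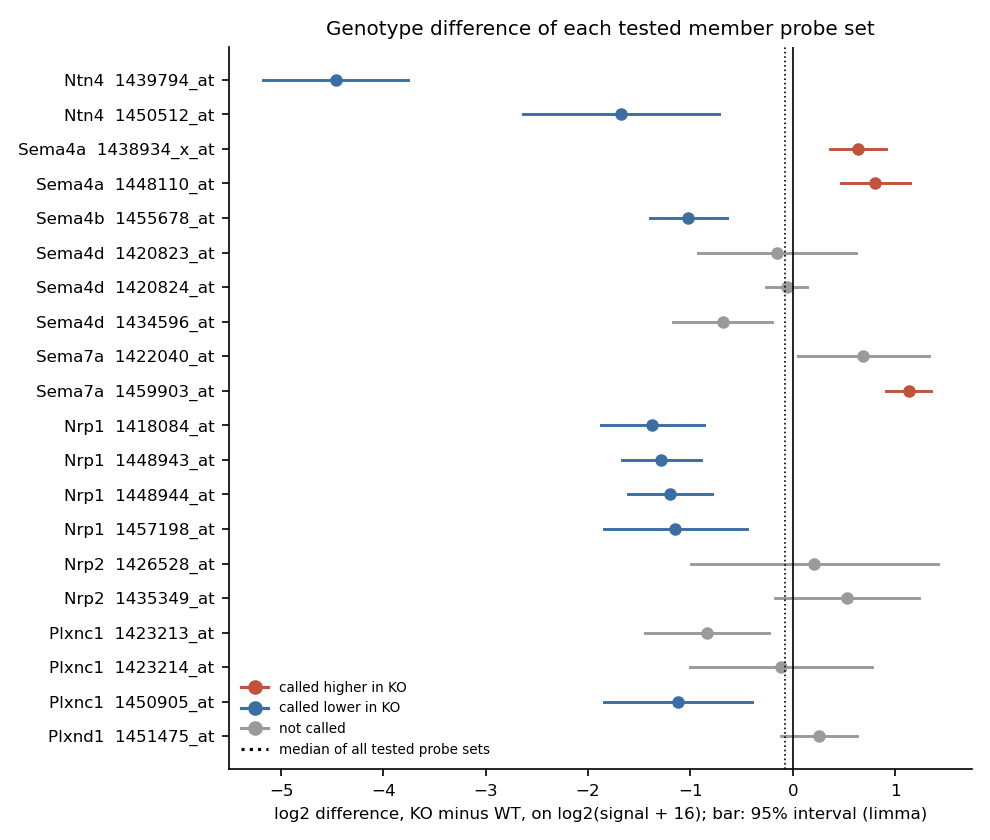
Log2 difference between KO and WT for the 20 tested member probe sets, with the 95% interval from limma as a bar, and the median of all tested probe sets as a dotted line at -0.08. Intervals of Ntn4, Nrp1 and Sema4b lie below 0 and those of Sema4a and Sema7a above it, while those of Nrp2 and Plxnd1 span 0.

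Nrp1, the neuropilin that marks thymic Treg cells and serves as a receptor for Sema4a, was lower in KO cells in all 4 of its probe sets. The probe set 1448943_at of Nrp1 read 2660.0 and 2283 on WT and 851 and 1183 on KO arrays. The probe set 1418084_at of Nrp1 read 1724 and 1133 on WT and 461 and 611 on KO arrays. The probe set 1448944_at of Nrp1 read 1260.1 and 1006 on WT and 427 and 544 on KO arrays. In each of these, KO array 1 was the lowest and WT array 1 the highest of the 4. The dimmest probe set of Nrp1, 1457198_at, read 199.8 and 242 on WT and 67.5 and 119.8 on KO arrays. In no Nrp1 probe set did the groups overlap. The log2 differences of Nrp1 were -1.37 ± 0.22 (1418084_at), -1.28 ± 0.17 (1448943_at), -1.20 ± 0.18 (1448944_at) and -1.15 ± 0.31 (1457198_at). Their 95% intervals overlap one another. These probe sets read the same RNA and are not replicates. None of the 4 was called without the signal dependence of the variance, and 1457198_at also lost its call when WT array 1, WT array 2 or KO array 1 was dropped, or without the filter on dim probe sets.

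Nrp2, the other neuropilin, was dim. Its probe set 1435349_at read 63.3 and 84.4 on WT and 121 and 105 on KO arrays, a difference of 0.53 ± 0.31 with a 95% interval from -0.17 to 1.23. Its probe set 1426528_at overlapped between the groups, with 21.9 and 85.8 on WT and 74.0 and 41.5 on KO arrays (0.21 ± 0.53). Without WT array 1 the latter turned to -0.50, so no direction can be given for it. The other 2 probe sets of Nrp2 were not tested.

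Among the plexins, which carry the signal into the cell, Plxnc1 was the member with a call. Plxnc1 is the receptor of Sema7a. Its probe set 1450905_at read 196 and 211 on WT and 116 and 61.1 on KO arrays (-1.12 ± 0.32), and 1423213_at read 344 and 318 on WT and 136 and 233 on KO arrays (-0.84 ± 0.27). The KO arrays lay below the WT arrays in both, but KO array 1 was above KO array 2 in 1450905_at and below it in 1423213_at. The former was called and the latter was not. Another tested probe set of Plxnc1, 1423214_at, overlapped between the groups (-0.11 ± 0.39), and 3 more were too dim to be tested. The call of 1450905_at was close to the threshold: it was lost under 7 of the alternatives, among them quantile normalization and the leaving out of WT array 1, WT array 2 or KO array 2. Without KO array 2, 1423213_at was called in its place, at -1.19.

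Plxnd1, a receptor with a role in thymocyte movement, read 518 and 577 on WT and 711 and 604 on KO arrays, a difference of 0.25 ± 0.16 with an interval from -0.12 to 0.62. The single probe set of Plxnb2, a receptor of class 4 semaphorins, read 4.30 and 5.54 on WT and 61.4 and 7.77 on KO arrays. Its higher value rested on KO array 1 alone, and no fold is given. All 7 untested member probe sets had signals between 1.80 and 63.5.

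Of the 4 member genes with a called fall, 2 lie on chromosome 10, and Sema4b is left out here. The stretches of genome around the start sites of the other 3, Ntn4, Nrp1 and Plxnc1, are shown. All are from RefSeq on GRCm38.p6 and run 5′ to 3′ on the strand of the gene, from 250 bases before the start site through the first 50 bases of the transcript. Capitals mark matches to 6 short motifs that were searched on both strands, and a sequence without capitals holds none of them.
Ntn4, chr10:93640799-93641098, plus strand: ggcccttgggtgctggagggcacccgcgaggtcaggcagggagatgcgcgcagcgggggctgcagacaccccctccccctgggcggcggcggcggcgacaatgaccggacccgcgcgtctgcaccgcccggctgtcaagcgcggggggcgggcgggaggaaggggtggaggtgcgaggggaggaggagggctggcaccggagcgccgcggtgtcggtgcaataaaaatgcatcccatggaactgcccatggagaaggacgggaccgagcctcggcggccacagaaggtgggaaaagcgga
Nrp1, chr8:128358823-128359122, plus strand: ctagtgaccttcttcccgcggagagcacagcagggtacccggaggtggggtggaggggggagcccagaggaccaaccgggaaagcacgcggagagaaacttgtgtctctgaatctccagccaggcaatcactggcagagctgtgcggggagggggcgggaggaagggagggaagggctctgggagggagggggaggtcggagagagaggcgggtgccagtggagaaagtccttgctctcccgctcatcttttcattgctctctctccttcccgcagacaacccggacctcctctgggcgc
Plxnc1, chr10:94944796-94945095, minus strand: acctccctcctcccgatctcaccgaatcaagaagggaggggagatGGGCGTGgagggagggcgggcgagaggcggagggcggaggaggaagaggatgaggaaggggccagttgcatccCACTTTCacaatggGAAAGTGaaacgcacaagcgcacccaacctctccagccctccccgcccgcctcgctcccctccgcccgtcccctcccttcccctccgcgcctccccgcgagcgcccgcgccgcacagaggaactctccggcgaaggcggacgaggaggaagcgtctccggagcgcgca

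The motifs were STAT (TTCNNNGAA), AP-1 (TGANTCA), forkhead (TGTTTAC), PRDM1 and IRF (GAAAGTG), KLF (GGGCGTG) and Smad (GTCTAGAC), and none of their matches in the member windows overlapped. The PRDM1 and IRF letters were added after the Plxnc1 sequence had been read. Of all 32851 windows in the RefSeq table, 8.3% hold the STAT letters, 7.81% AP-1, 3.65% forkhead, 4.81% PRDM1 and IRF, 8.44% KLF and 0.213% Smad. The 10 genes have 17 windows, since some have several start sites. The window of Plxnc1 holds GAAAGTG from -118 to -112 of its start site, the same letters on the other strand from -132 to -126, and GGGCGTG from -205 to -199. Plxnd1 holds GGGCGTG at 4 places, and 1 window of Sema4d holds the AP-1 letters. No other match was found in these windows. A match is a description of letters, and binding of a factor was not measured. The windows of Ntn4 and Plxnc1 were rich in G and C, at 72% and 69%, and that of Nrp1 at 64%, where the median of all windows is 52.7%. This was not particular to genes that fell. Nrp2 was at 70.7%, Sema7a at 67.3% and Plxnd1 at 67%, while the windows of Sema4d were at 51% to 56%. Those of Sema4b, which fell, were at 65.3% and 71.7%, and those of Sema4a, which rose, at 55.3% to 61.7%.

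Ntn4 and Plxnc1 lie on the same chromosome, with 8 protein-coding genes between them in the RefSeq gene order of GRCm38.p6. This was looked at after the values were known. Of those 8, 7 were tested, 1 was called higher, 1 lower and 5 were not called. Tmcc3 read 1005 and 1179 on WT and 343 and 403 on KO arrays (-1.51 ± 0.16, limma adjusted p = 0.000604), and Metap2, a methionine aminopeptidase gene, was at 0.43 ± 0.11 (limma adjusted p = 0.0342). Of the 10 protein-coding genes on each outer side, 15 of 20 were tested, 2 were called higher and 3 lower. With 1 probe set per gene, 20.3% of all tested genes were called. The genes next to Ntn4 on one side, Snrpf (-0.07 ± 0.15), and the first tested on the other, Metap2, did not share its fall.

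**Figure D3:**
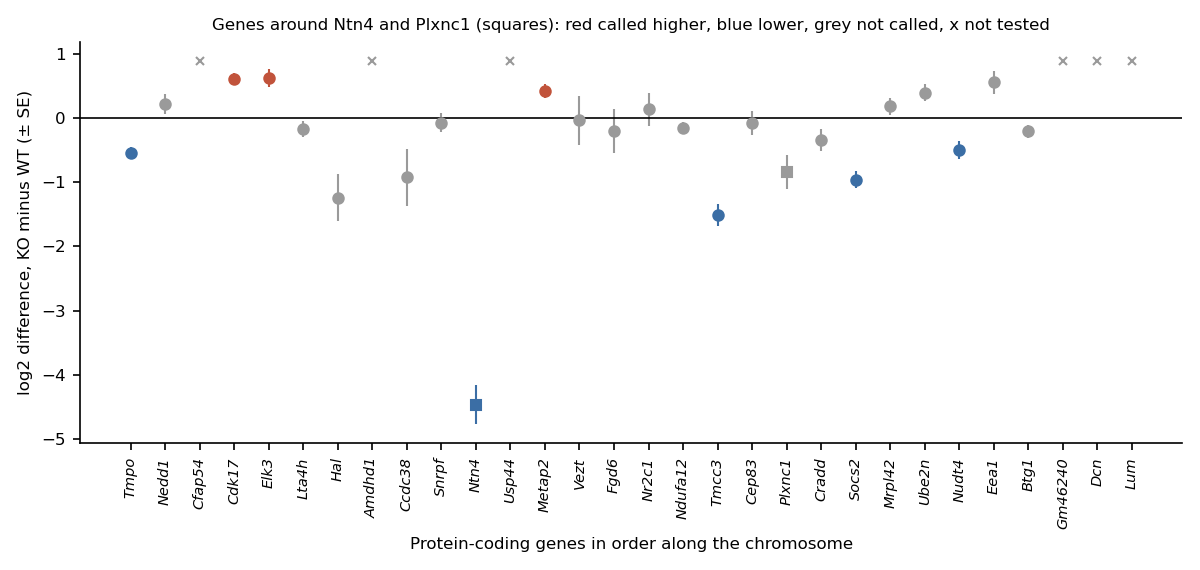
Log2 difference between KO and WT (± SE) for protein-coding genes in their order along the chromosome from 10 before Ntn4 to 10 past Plxnc1, each by its brightest probe set. Ntn4 is the low square at -4.47, most other genes lie within 1 of 0, and the square of Plxnc1 is 1423213_at, which was not called.

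By the distance between mean-centred log2 profiles over the 4 arrays, the genes most like Ntn4 were Pdlim4 (6578 and 6253 on WT, 422 and 442 on KO arrays; distance 0.84), Fbln1 (0.92) and Atp1b1 (1.03). Those most like Nrp1 were Cyp39a1 (0.122), Nle1 (0.122) and Ttc13, which read 5355 and 4895 on WT and 1962 and 2497 on KO arrays (0.133). With 4 arrays such a likeness says little more than that the size of the fall was alike. The distances of Ntn4 to its nearest genes were larger than those of Nrp1.

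Other genes of these families, of their signalling and of further guidance families were taken from 6 lists, 117 genes in all. The lists were chosen by function, but with earlier results of these data known, so their counts are a description. Of the 117 genes, 77 were tested with 1 probe set each. Of these 9 were called higher and 7 lower, which is 20.8%, near the 20.3% of all tested genes (10.5% higher and 9.87% lower). The 77 genes do not include the members, and 10 of them belong to the Slit, Robo and ephrin families. No verdict on the pathway as a whole is drawn from their share. The median log2 difference of the 77 was 0.06, against -0.03 for all tested genes.

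Besides Ntn4, 2 further netrin genes fell. Ntn5, a netrin relative, read 548 and 435 on WT and 100.3 and 98.8 on KO arrays (-2.13 ± 0.22, limma adjusted p = 0.000465), and its KO arrays lay far below both WT arrays. Ntn1, the founding netrin, read 262 and 128 on WT and 55.1 and 68.9 on KO arrays (-1.36 ± 0.36, limma adjusted p = 0.036). The WT arrays of Ntn1 differed by more than a doubling of signal, and its call was lost without WT array 1 or KO array 1 and without the filter on dim probe sets. Of the 8 tested genes on the netrin list these 2 were called lower and 0 higher. Over all tested genes 9.87% were called lower and 10.5% higher, and nothing is read from so small a count. With Unc5a, which was higher in KO cells, 3 had an unadjusted p under 0.05. The netrin receptor genes Dcc (0.09 ± 0.33), Neo1 (0.47 ± 0.42), Unc5a (1.27 ± 0.51), Unc5b (0.14 ± 0.40) and Unc5c (-0.43 ± 0.61) were dim and not called.

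Of 8 tested semaphorin genes outside the members 2 were called higher and 0 lower, with 3 at an unadjusted p under 0.05. Sema3f was among those 3, but it was lower in KO cells (-1.21 ± 0.44) and was not called. The shares over all tested genes were 10.5% higher and 9.87% lower. Sema6d, a membrane semaphorin, read 169 and 348 on WT and 1230.3 and 849.8 on KO arrays (4-fold with a log2 SE of 0.31, limma adjusted p = 0.00347), but another probe set of Sema6d was level (0.01 ± 0.38). Sema4f read 927 and 809 on WT and 1887 and 2467 on KO arrays (1.30 ± 0.16, limma adjusted p = 0.00104), and the other tested probe set of Sema4f was called higher too. Of 5 other plexin genes 0 were called by limma, and 0 had an unadjusted p under 0.05. Plxnb1, a receptor of Sema4d, was at 0.55 ± 0.37, and Plxna1, a partner of neuropilins, at -0.31 ± 0.22.

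Receptors and ligands beyond the plexins moved both ways. Cd72, a receptor of Sema4d known from B cells, read 1375 and 1603 on WT and 625 and 685 on KO arrays (-1.16 ± 0.14, limma adjusted p = 0.00109). Timd2, a receptor of Sema4a, read 34.5 and 55.3 on WT and 187 and 146 on KO arrays (1.60 ± 0.33, limma adjusted p = 0.013), although a second probe set of Timd2 was not called. Itga1, which forms the integrin that Sema7a binds, read 26.8 and 14.1 on WT and 132 and 105 on KO arrays (1.90 ± 0.39, limma adjusted p = 0.0123), and its partner Itgb1 was at 0.29 ± 0.15 and was not called. Vegfc, a growth factor that binds Nrp2, read 34.9 and 21.6 on WT and 221 and 289 on KO arrays (2.62 ± 0.32, limma adjusted p = 0.00109), and all 3 of its tested probe sets were called higher. L1cam, an adhesion molecule that pairs with Nrp1, read 357 and 439 on WT and 1055 and 788 on KO arrays (1.17 ± 0.19, limma adjusted p = 0.00443). Of the 14 tested genes of this list 4 were called higher, 1 lower and 9 not, beside 10.5% higher and 9.87% lower over all tested genes. The differences of Itga1 and Vegfc depend on the added 16, and with 64 in its place they were 1.11 and 1.79. The call of Itga1, and that of Timd2, was lost without KO array 1.

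**Figure D4:**
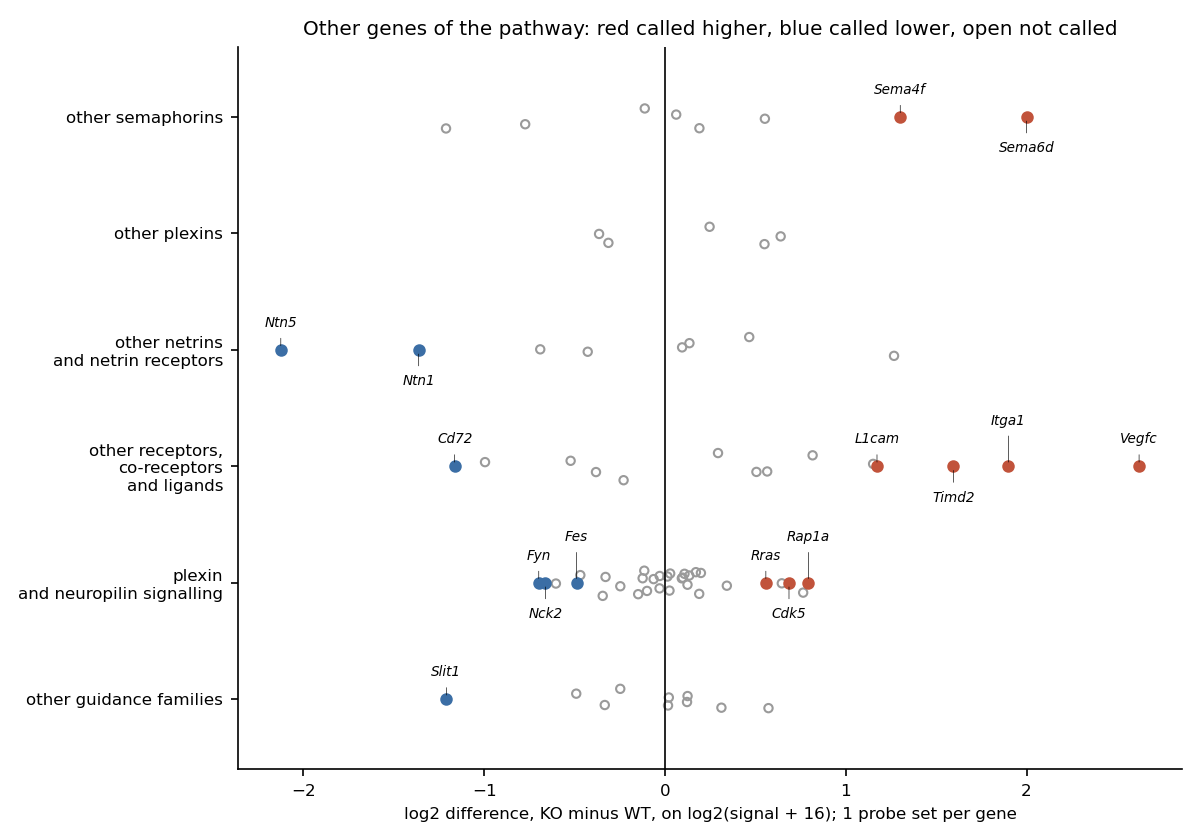
Log2 difference between KO and WT for the 77 tested genes of the 6 pathway lists, 1 point per gene, red where called higher, blue where called lower and open where not called. Ntn5 at -2.13 and Vegfc at 2.62 are the outermost points, and most signalling genes lie near 0.

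Inside the cell, 3 of 32 tested signalling genes of plexins and neuropilins were called higher, 3 lower and 26 neither. Over all tested genes 10.5% were called higher and 9.87% lower, so nothing is read from these counts. Rap1a, a small GTPase that plexins switch off, read 6553 and 6740 on WT and 11714 and 11346 on KO arrays (0.79 ± 0.09, limma adjusted p = 0.000635), and both of its probe sets were called. Rras, the Ras relative on which plexins act, was at 0.56 ± 0.13 (limma adjusted p = 0.0228), and Cdk5, a kinase of the semaphorin response, at 0.69 ± 0.15 (limma adjusted p = 0.0179). The kinase genes Fyn (-0.70 ± 0.12, limma adjusted p = 0.00623) and Fes (-0.49 ± 0.12, limma adjusted p = 0.0249) and the adaptor gene Nck2 (-0.66 ± 0.18, limma adjusted p = 0.0391) were lower. Other tested probe sets of Cdk5 (1.33 ± 0.45 and 0.16 ± 0.32) and of Nck2 (0.10 ± 0.46) were not called. The other tested probe sets of Fyn (-0.76 ± 0.15) and of Fes (-0.74 ± 0.15) were called lower too. The alternatives given below are for the brightest probe set of each gene only. Gipc1, which binds the tail of Nrp1, was at 0.03 ± 0.18. Of the 10 tested genes of the Slit, Robo and ephrin families Slit1 was called lower (-1.21 ± 0.34, limma adjusted p = 0.0448) and 0 were called higher. Several of these calls were lost when 1 array was left out, which also leaves fewer arrays to estimate the spread from. The log2 difference of Slit1 then stayed between -1.33 and -1.09. Slit1 was not called without any 1 of the 4 arrays, Rras not without KO array 2 or either WT array, and Cdk5 not without WT array 2 or KO array 2. Fes was not called without WT array 1 or KO array 1, and Nck2 not without KO array 1 or either WT array. Centring the arrays on their median ended the calls of Fes and Slit1. Of the 16 called genes of the 6 lists, Ntn5, Cd72, Vegfc, Itga1 and Slit1 were also called in the fit without signal dependence of the variance, and the other 11 were not.

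**Figure D5:**
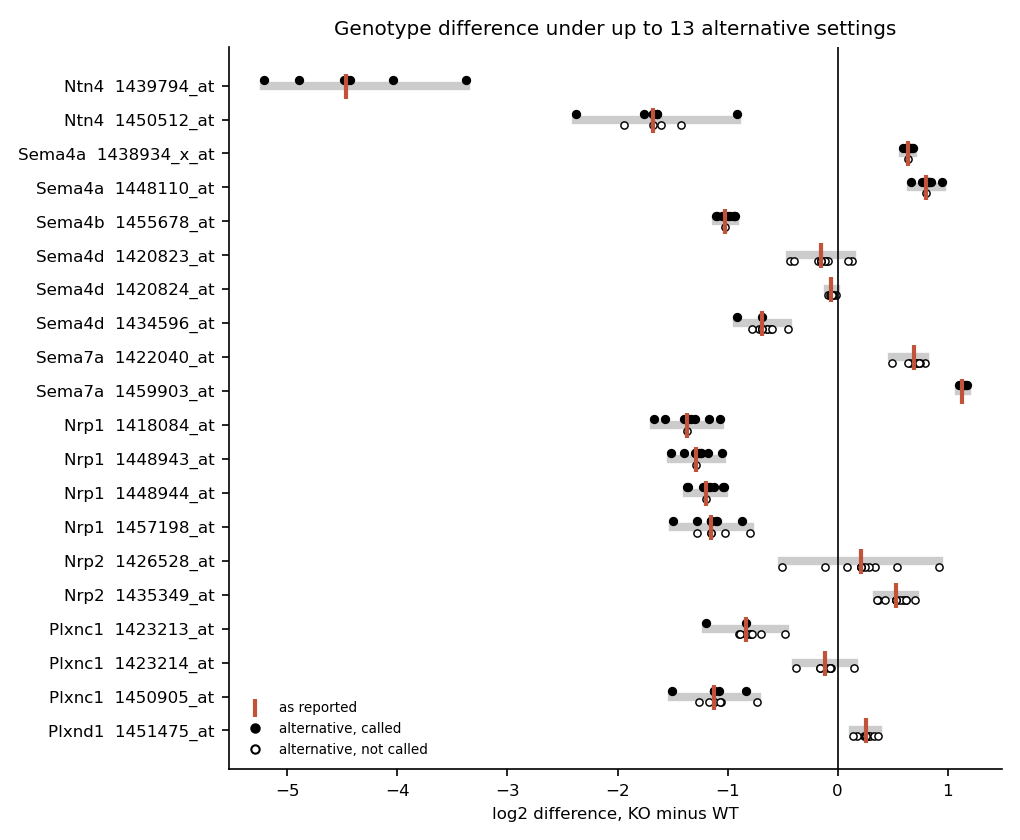
Log2 difference between KO and WT of the 20 tested member probe sets as reported (red bar) and under the alternative settings, filled above the line where called and open below it where not called. The spread is widest for Ntn4, from -5.21 to -3.37 in 1439794_at, and narrowest for bright probe sets such as 1459903_at of Sema7a.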

How the data were processed

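RNA of 4 samples was measured on Affymetrix arrays. The deposited values are linear intensity values per probe set, made by the authors with MAS5 per the submitters' processing notes, whose version and settings are not given in the sources used here. The values show a trimmed mean that was the same on every array, so differences in total RNA per cell are lost. Of 45101 probe sets 34958 name 1 gene in the platform annotation, 932 several and 9211 none, and only the first kind was named; 34754 of them were found in the RefSeq table, with 0 symbols changed.

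Signals were taken as log2(signal + 16) without the 64 control probe sets, and dropping the dimmest 40% left 27022 probe sets, which represent 12547 genes. The genotypes were compared by limma 3.58.1 (R 4.3.3, eBayes on an lmFit model, variance trend on intensity, two-sided, Benjamini-Hochberg over all tested probe sets, threshold 0.05), with 2 residual and 6.41 prior degrees of freedom. The fit was tested on simulated data whose variance did not depend on signal, so the variance trend was not put to a test there. Lists used the brightest probe set of each gene. Named were all members, up to 6 called genes of each list, and 3 nearest profiles for Ntn4 and Nrp1; genes not called were named as receptors or partners of members after their values were seen. Members and lists were chosen with earlier results of these data known. Promoters and gene order came from RefSeq tables of GRCm38.p6. The alternatives were other pseudocounts (1 and 64), filters (none and 60%), scalings, no trend, a replicate block, and each array left out. A further one left out all probe sets with the suffix _x_at, _s_at or _a_at.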

Additional observations from a re-analysis of the deposited data

How the results depend on the processing

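The choice that weighed most was the variance model. Over the whole table, calls dropped from 2131 higher and 2477 lower to 727 and 456 without the trend of variance with intensity. Of the member probe sets 1 was then called higher and 2 lower, in place of 3 and 8, and of the other pathway genes 2 and 3, in place of 9 and 7. The log2 differences do not change under that alternative. With no filter on low values 5 member probe sets and 4 other pathway genes were called lower. Leaving out 1 array gave 1163 to 2570.0 lower calls over the table (1421 without WT array 1 and 1163 without WT array 2), 5 to 8 among the member probe sets and 4 to 7 among the other pathway genes, and 7 to 9 of the latter called higher. The array left alone in its group was then assumed to vary like the others. Of the member probe sets, the direction turned in 5 cases, all of them not called: Nrp2 1426528_at was at -0.50 without WT array 1 and -0.11 without KO array 1, and reached 0.93 without WT array 2. Plxnc1 1423214_at was at 0.15 without KO array 2 and at -0.38 without KO array 1. Sema4d 1420823_at was at 0.13 without WT array 2, 0.09 without KO array 2 and -0.43 without WT array 1. The cause was not tested.

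The arrays share replicate numbers 1 and 2, but the deviations of same-numbered arrays correlated at only 0.010 over the tested probe sets, so the numbers were not taken as pairs. With the number as a replicate block, 2412 probe sets were called higher and 2970.0 lower, 3 and 10 among the member probe sets, and 10 and 8 among the other pathway genes. The member probe sets that the block added were Sema4d 1434596_at and Plxnc1 1423213_at, with the same log2 differences, and Plxnc1 1450905_at was called under it as well. Under quantile normalization, centring on the median, either pseudocount and the stricter filter, 3 member probe sets were called higher and 7 or 8 lower. Dim signals limit what can be seen for Nrp2, Plxnb2 and part of the Plxnc1 probe sets.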
